A study of Arabidopsis thaliana with 3 samples.

Results

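Transcripts of the class III peroxidase family were read on 3 ATH1 short-oligonucleotide arrays, from whole Arabidopsis thaliana seedlings that were 2 weeks old. The family was taken as 60 loci of secretory peroxidases. Of these, 43 had a probe set listed for that gene alone and are the genes described here, out of 13356 such genes on the array. A further 7 loci had only probe sets listed for several genes, and 10 loci had no named probe set here. Among those 10 are the named genes RCI3, PER4, PRXCA, PRXCB, PA2, PER64 and RHS19, which were therefore not read. Each of the 43 genes was read by 1 probe set.

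One array came from wild type plants, 1 from a transgenic plant overexpressing DRB2 and 1 from a transgenic plant overexpressing DRB3. DRB proteins bind double-stranded RNA and are known for roles in small RNA pathways. The seedlings grew at 22 °C in days of 16 h light and 8 h dark. The sources used here give neither the promoter that drives the transgenes nor the number of lines or seedlings behind each array, and DRB2 and DRB3 had no named probe set, which left the overexpression unchecked. With 1 array per genotype there was no replicate, no error and no test, so the precision of each value is limited by that number. Below, "with DRB2" and "with DRB3" stand for the arrays of the DRB2 and the DRB3 overexpressor. The tissue comprised all organs, so a lower reading from fewer cells of a type and one from less RNA per cell cannot be told apart.

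Class III peroxidases are haem enzymes that plants secrete into the cell wall and the vacuole. They use hydrogen peroxide to oxidise phenolic compounds, which couples monolignols into lignin, joins suberin phenolics and cross-links wall proteins such as extensins, and stiffens the wall. In another cycle they can produce reactive oxygen species, which loosens the wall or feeds the oxidative burst of defence. Many members of the large Arabidopsis family are known to be transcribed mainly in roots, and single members are known for roles in lignin, root hairs, seed coat and anthers.

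Intensities are MAS5 signals in arbitrary units. Values under a floor of 109, set from the weaker probe sets on the 3 arrays, were raised to it before a log2 ratio was taken. The words rose and fell are kept for floored intensities at least 2-fold apart, and a fold with 1 value under the floor is a bound, written "at least". Readings of different probe sets are not compared with each other as transcript levels.

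Part of the peroxidase family read higher on both overexpressor arrays than on the wild-type array. In the DRB3 overexpressor against wild type, 10 of the 43 genes rose (23.3%) and 0 fell, where 1.44% of all genes rose and 1.53% fell. In the DRB2 overexpressor against wild type, 4 of 43 rose (9.30%) and 0 fell, where 0.532% of all genes rose and 0.412% fell. These comparisons share their wild-type array, and the family was chosen with earlier results of these data known. In the comparison that leaves wild type out, DRB3 against DRB2 overexpressor, 4 of 43 rose and 0 fell, where 0.577% of all genes rose and 0.614% fell. Falls were rare over all genes, so 0 of 43 is near the background in each comparison. With each array divided by its median, all genes split into 55 higher and 74 lower in DRB2 against wild type (71 and 55 as deposited) and 90 higher and 61 lower in DRB3 against DRB2 (77 and 82 as deposited). The counts of peroxidase genes rest on the floor: with it at percentile 60, the numbers that rose were 6 with DRB3, 1 with DRB2 and 2 between the overexpressors, where 0.734%, 0.217% and 0.240% of all genes rose. With it at percentile 20 they were 13, 7 and 4, where 2.76%, 3.21% and 1.23% of all genes rose.

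The median log2 ratio of the 43 genes was 0.37 in DRB3 against wild type, 0.15 in DRB2 against wild type and 0.16 in DRB3 against DRB2, while that of all 13356 genes was 0 in each. The medians take genes that lay under the floor on all 3 arrays as 0. These were 13 of the 43 peroxidase genes and 5590 of all 13356 genes, and the floor thus keeps the median of all genes at 0. The upper quartile was 0.84, 0.60 and 0.55 in the same order, against 0.06, 0.06 and 0.03 over all genes. The lower quartile was 0 in each, against -0.06, -0.03 and -0.07. Of the 30 peroxidase genes above the floor on some array, 22 (73.3%) read highest on the DRB3 overexpressor array and 1 (3.33%) on the wild-type array, where the shares among the 7766 genes of the array above the floor on some array were 35.3% and 33.5%.

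**Figure D1:**
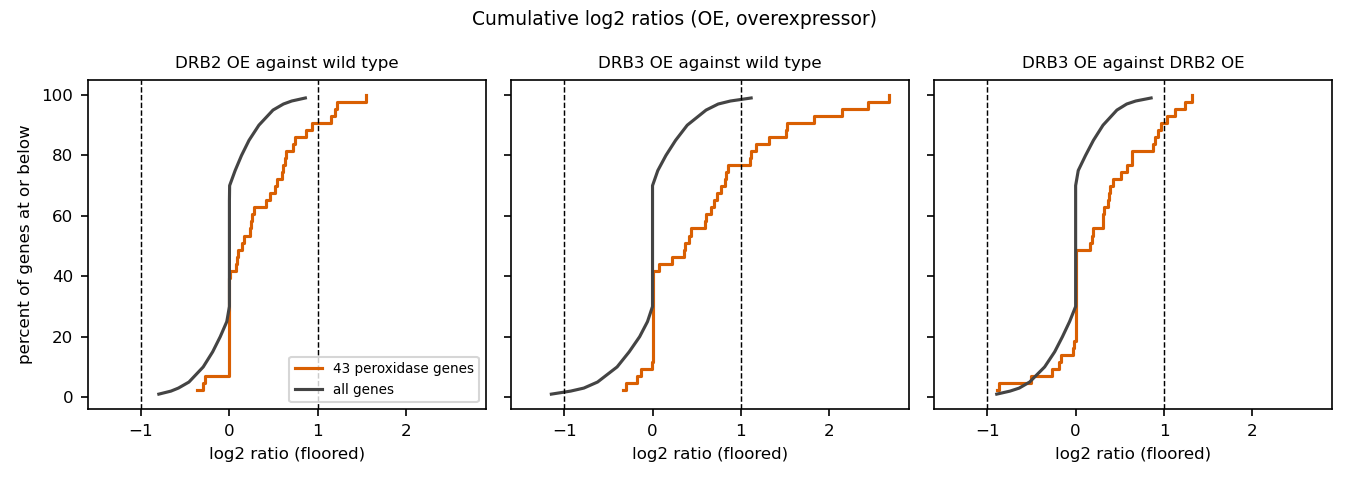
Cumulative share of genes (percent, vertical axis) by log2 ratio of floored intensities (horizontal axis) in the 3 comparisons, for the 43 peroxidase genes (orange) and for all genes between percentiles 1 and 99 (grey). Dashed lines mark 2-fold. The orange curve lies to the right of the grey one above 0, and passes 2-fold for 4, 10 and 4 genes.

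Since many peroxidase genes are transcribed in roots, markers of root and shoot were read on the same arrays. Of 12 root markers 3 were measured, and 1 of them rose, with DRB3, where 1.44% of all genes rose. With so few markers the count says little about root content. EXPA18, an expansin gene of root hairs, read 184 in wild type, 278 with DRB2 and 439 with DRB3, 2.39-fold above wild type with DRB3. EXPA7, also of root hairs, read 52.1 and 95.1, under the floor, and then 158. PYK10, a beta-glucosidase gene of root and hypocotyl, read 19349, 21376 and 21891. The summed root reading, nearly all of it PYK10, was 19585, 21750 and 22488, and does not show the rise of EXPA18. Of 8 shoot markers RCA, for Rubisco activase, was measured, and read 33718, 29895 and 21690, a log2 ratio of -0.64 with DRB3. On floored readings the log2 ratio of EXPA7 with DRB2 against wild type was 0. The part of these markers in the peroxidase ratios was not tested.

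The arrays also differed in their control probe sets. In 6 of 6 pairs of control probe sets the signal at the 3' end over that at the 5' end decreased from wild type to DRB2 to DRB3, with ranges of 2.42 to 29.2, 2.11 to 24.7 and 1.5 to 17.7. The control for 25S ribosomal RNA read 12982, 3603 and 11339. Median probe set readings were 187, 196 and 187, and 7216, 7405 and 7200 genes lay above the floor. The 3' to 5' ratios were lowest on the DRB3 array, where 22 of the 30 peroxidase genes above the floor on some array read highest, and their part in the peroxidase ratios was not tested.

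Among the peroxidase genes above the floor on all 3 arrays, the 3 highest ratios against wild type, with DRB2 as with DRB3, were those of named genes with known roles in wall damage, lignin or growth. AT5G64120 (PRX71), known from mutants for slowing growth and raising reactive oxygen species after cell wall damage, read 162 in wild type, 471 with DRB2 and 1028 with DRB3. It was 2.92-fold higher with DRB2 and 6.36-fold higher with DRB3, and stood at rank 12 and rank 9 of the 13356 genes by ratio of floored readings. Its DRB3 reading was also 2.18-fold above that with DRB2, so the 3 arrays were spaced in steps of over 2-fold.

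AT5G66390 (PRX72), known for its part in lignin formation, read 149 in wild type, 341 with DRB2 and 807 with DRB3. The folds against wild type were 2.29 and 5.41, and the fold between the overexpressors was 2.37, larger than that of AT5G64120. AT4G08770 (Prx37), whose overexpression is known to dwarf the plant, read 231, 538 and 1022 in the same order. It rose 2.33-fold with DRB2 and 4.43-fold with DRB3, and the overexpressors differed by 1.90-fold, just under the threshold.

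Of the other named members with roles in lignin that were measured, 1 was close to wild type on both arrays and 1 was too weak to read. AT2G41480 (PRX25), linked to lignin of the stem, read 131 in wild type, 139 with DRB2 and 137 with DRB3, log2 ratios of 0.09 and 0.07 against wild type. AT5G05340 (PRX52), known for lignin of fibre cells, lay under the floor on all 3 arrays, with readings of 13.2, 84.9 and 108, the last just short of the floor.

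AT5G39580, which like most of the family has no symbol beyond its locus in the tables used here, lay under the floor in wild type at 59.7 and above it in both overexpressors, at 208 and 386. Its rise with DRB3 was at least 3.55-fold. With DRB2 the fold was at least 1.91, short of the threshold because the wild-type value was raised to the floor. With the floor at percentile 20 its log2 ratios were 1.80 with DRB2 and 2.69 with DRB3, beside 1.54 and 2.67 for AT5G64120. AT3G49960 was the other gene that crossed the floor among those that rose. It read 85.7 in wild type, 98.2 with DRB2 and 272 with DRB3, a rise of at least 2.5-fold against each, so that the DRB3 array stood alone.

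AT5G64100 read 560 in wild type, 1241 with DRB2 and 1603 with DRB3. It rose 2.22-fold and 2.86-fold, and most of its difference from wild type was already present with DRB2, since the overexpressors differed by 1.29-fold. AT4G11290 read 228, 355 and 649, a rise of 2.85-fold with DRB3 and a ratio of 1.56-fold with DRB2. The DRB3 reading of AT4G11290 was 1.83-fold above the DRB2 reading, so here the larger step lay between the overexpressors.

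The other genes that rose with DRB3, 3 in number, were close to the threshold. AT4G33420 read 247 in wild type, 358 with DRB2 and 555 with DRB3, 2.24-fold above wild type with DRB3. AT1G68850 read 167, 176 and 362, 2.17-fold above wild type and 2.05-fold above the DRB2 overexpressor. For AT1G68850 wild type and DRB2 were close (1.06-fold) and only the DRB3 array was apart. AT1G30870 read 323, 533 and 694, 2.15-fold above wild type, with DRB2 in between at 1.65-fold.

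Just short of 2-fold with DRB3 were AT3G28200 and AT4G26010, with log2 ratios of 0.83 and 0.82. AT3G28200 read 436 in wild type, 622 with DRB2 and 773 with DRB3, and AT4G26010 read 418, 646 and 738. AT1G34510 read 73.3 in wild type, under the floor, 150 with DRB2 and 196 with DRB3. Its log2 ratio with DRB3 was therefore only a bound, at least 0.85, and it passed 2-fold with the floor at percentile 20 (1.42) and with a pseudocount of 16 in place of the floor (1.25). In each of these genes wild type was lowest and the DRB3 overexpressor highest.

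**Figure D2:**
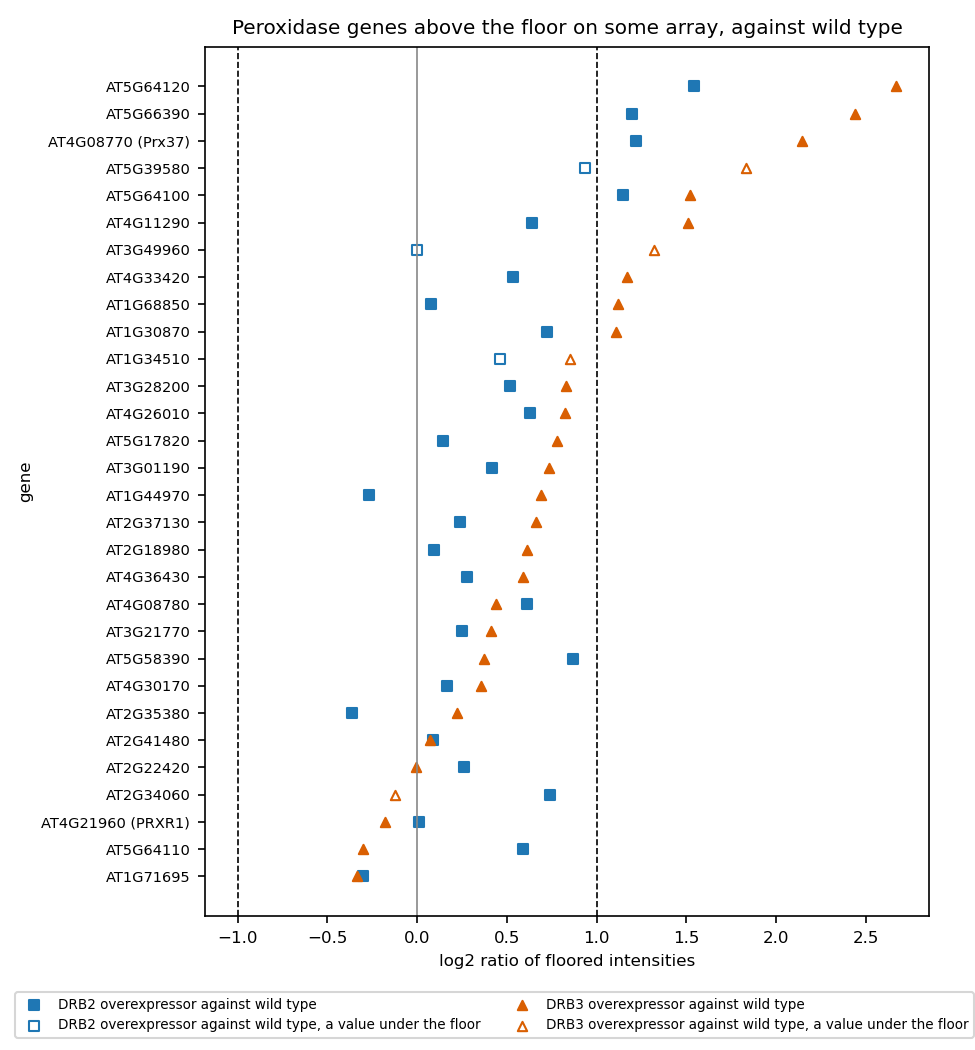
Log2 ratio of floored intensities against wild type (horizontal axis) for the 30 peroxidase genes above the floor on some array, for the DRB2 overexpressor (squares) and the DRB3 overexpressor (triangles), 1 array each. Open symbols have a value under the floor, dashed lines mark 2-fold; 10 triangles and 4 squares lie past it on the higher side and none on the lower side. Both ratios share the wild-type array.

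Neighbouring genes differed in their ratios. AT5G64100, AT5G64110 and AT5G64120 lie next to each other in the genome, and the outer genes rose on both overexpressor arrays while the middle one did not. AT5G64110 read 136 in wild type, 205 with DRB2 and 110 with DRB3, log2 ratios of 0.59 and -0.30 against wild type. Its ratio of DRB3 to DRB2 was -0.89 on the log2 scale, where AT5G64120 had 1.13 and AT5G64100 had 0.37. AT4G08780 is the neighbour of AT4G08770 (Prx37) and read 124, 190 and 169. Its log2 ratios against wild type were 0.61 and 0.44, under 2-fold, beside 1.22 and 2.15 for AT4G08770. Neighbouring peroxidase genes are often recent copies, and how far these probe sets read one another's transcripts was not tested. None of the 43 probe sets carries the suffix that marks one shared by several transcripts.

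**Figure D3:**
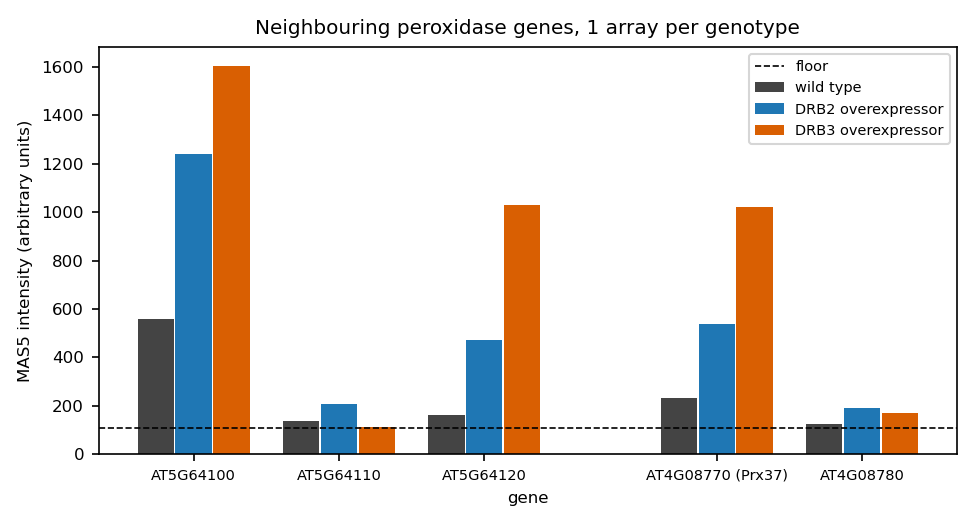
MAS5 intensity (bars, vertical axis from 0) of 5 peroxidase genes in 2 groups of genomic neighbours on the wild-type, DRB2 overexpressor and DRB3 overexpressor arrays, 1 array each; the dashed line is the floor of 109. AT5G64100, AT5G64120 and AT4G08770 (Prx37) climb from wild type to DRB2 to DRB3, while AT5G64110 and AT4G08780 read highest with DRB2.

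Most probe sets with the strongest readings stayed under 2-fold, but as a group they were not flat. The median log2 ratio of the 10 strongest was 0.64 with DRB3 and 0.20 with DRB2. That was under the 0.71 and 0.44 of the 30 peroxidase genes above the floor on some array. Over all 43 genes, of which the floor set 13 to 0, the medians were 0.37 and 0.15. AT4G21960 (PRXR1) read 19114 in wild type, 19213 with DRB2 and 16887 with DRB3, log2 ratios of 0.01 and -0.18. AT1G71695 read 2023, 1642 and 1606, with the wild-type array highest, as in no other gene of the family above the floor, and log2 ratios of -0.30 and -0.33. AT4G30170 read 2446, 2741 and 3126, and AT3G21770 read 1408, 1673 and 1870, with log2 ratios with DRB3 of 0.35 and 0.41.

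Of the 10 genes with the strongest readings, AT5G64100 alone passed 2-fold. The log2 ratios of the other 9 ran from -0.33 to 0.83 with DRB3 and from -0.30 to 0.51 with DRB2. AT2G37130 read 1025 in wild type, 1208 with DRB2 and 1620 with DRB3. AT5G17820 read 787, 871 and 1350, a log2 ratio of 0.78 with DRB3 and 0.15 with DRB2. In AT5G17820, as in AT1G68850, wild type and the DRB2 overexpressor were close and the DRB3 overexpressor was apart. The remaining genes not given above, AT2G18980 and AT3G01190, had log2 ratios of 0.61 and 0.73 with DRB3 and of 0.09 and 0.42 with DRB2.

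A smaller set read highest with DRB2. AT5G58390 read 215 in wild type, 393 with DRB2 and 278 with DRB3, 1.83-fold and 1.29-fold above wild type. AT2G34060 read 119, 198 and 76.1, so that DRB3 lay under the floor, and the log2 ratio of DRB3 to DRB2 was -0.87 or lower. With the floor at percentile 20 it was -1.38, past 2-fold. AT2G22420 read 209, 250 and 208, with wild type and DRB3 within 1.01-fold of each other. Together with AT5G64110, AT4G08780, PRX25 and PRXR1 these made 7 of the 30 genes above the floor on some array (23.3%) with the highest reading on the DRB2 array, where the share among all such genes was 31.2%.

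Of the 30 genes, 2 read lowest with DRB2 (6.67%), where the share among all genes above the floor on some array was 24.7%. AT1G44970 read 200 in wild type, 166 with DRB2 and 323 with DRB3, 1.95-fold apart between the overexpressors. That ratio passed 2-fold after median centring and after quantile normalization, at log2 1.03 and 1.02. AT2G35380 read 301, 234 and 351, log2 ratios against wild type of -0.36 with DRB2, the lowest of the 30 in that comparison, and of 0.22 with DRB3. AT4G36430, the last of the 30 genes above the floor on some array, read 485, 587 and 730.

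The other 13 genes, PRX52 among them, lay under the floor on all 3 arrays. Their readings ran from 2.15 to 48.9 in wild type, from 6.59 to 84.9 with DRB2 and from 5.86 to 108 with DRB3. They include AT3G50990 (PER36), known for its role in seed coat mucilage release, which read 2.15, 6.59 and 18.6. The others are AT1G14550, AT1G24110, AT1G49570, AT2G24800, AT2G39040, AT2G43480, AT3G03670, AT4G16270, AT4G17690, AT4G25980 and AT5G06730. No direction is drawn from readings this weak. In all, 69.8% of the peroxidase genes and 58.1% of all genes were above the floor on some array.

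**Figure D4:**
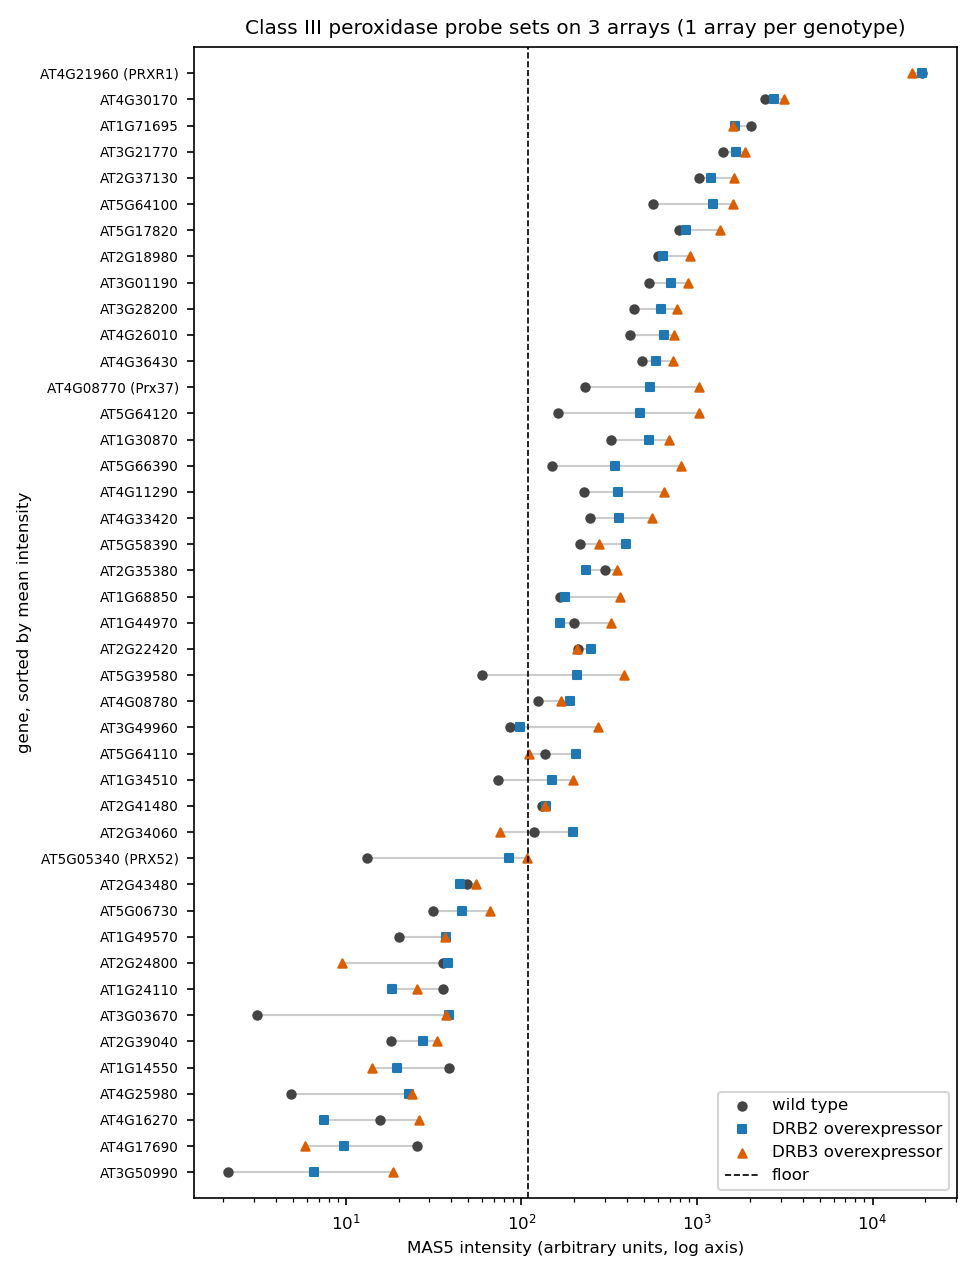
MAS5 intensity (log axis) of the 43 peroxidase probe sets on the wild-type array (circles), the DRB2 overexpressor array (squares) and the DRB3 overexpressor array (triangles), sorted by mean; the dashed line is the floor of 109. Readings compare arrays within a row, not rows with each other: 13 genes lie wholly left of the floor, and the wide gaps above it belong to genes such as AT5G64120, from 162 to 1028.

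Few genes that supply or share the substrates of these enzymes could be read. Altogether 5 lists held 87 genes of respiratory burst oxidases, hydrogen peroxide scavenging, monolignol synthesis, laccases, and Casparian strip and suberin, and 6 had a probe set of their own under a matching symbol, none of them a respiratory burst oxidase. None of the 6 passed 2-fold in any of the 3 comparisons. In DRB2 against wild type, DRB3 against wild type and DRB3 against DRB2, 0.532%, 1.44% and 0.577% of all genes rose. In the same order 0.412%, 1.53% and 0.614% fell, so none of 6 is near these shares. HCT, an enzyme of monolignol synthesis, read 3187 in wild type, 2788 with DRB2 and 2629 with DRB3. CCR2, for a cinnamoyl-CoA reductase, read 74.3 and 70.5, under the floor, and then 160 with DRB3, at least 0.56 on the log2 scale. Of the chloroplast ascorbate peroxidases, which remove hydrogen peroxide inside the cell, SAPX read 1757, 1187 and 1761, and TAPX read 1653, 1182 and 1092. GSO1, a receptor kinase of the Casparian strip, read 168, 165 and 200, and LAC16, a laccase, was under the floor on all arrays.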

How the data were processed

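Per the labels' protocols, 10 ug of seedling RNA was biotinylated as cRNA by the Affymetrix procedure. The authors deposited linear intensities, made by MAS5 according to the submitters' processing notes, with the version not given in the sources used here. Every array had a 2% trimmed mean of 500.05, so no further scaling was applied. Groups follow the genotype labels, since the series' design text is about another gene and a salt treatment that no sample label mentions. The dye named in the labels does not match the biotin procedure either, and neither mismatch could be resolved here.

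Of 22810 probe sets, 64 were controls, 503 were listed for several genes and not used, and 8794 were unnamed here. Of several probe sets for a gene, the one reading highest on average was kept. Members were matched by locus through RefSeq (assembly TAIR10.1), which held all 60. Percentile 40 of all probe sets but the controls was taken on each array, and the floor was the mean of these.

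Named genes were members past 2-fold in any comparison, the 10 with the highest mean reading, and neighbours (locus numbers at most 20 apart). The other members are given by value or range. A listed gene of another pathway was used only where its symbol matched the tables. Members and lists were chosen with earlier results of these data known. The steps were tested on simulated data. As alternatives, the floor was put at percentile 20 or 60 or replaced by a pseudocount of 16, and the others were median centring, quantile normalization and averaging over the probe sets of a gene. Calculations used numpy 2.4.6, pandas 2.3.3 and scipy 1.17.1 under Python 3.11.15.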

Additional observations from a re-analysis of the deposited data

Results flagged for a closer look

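A strong signal lay in data outside the comparisons. One probe set is listed for both AT4G37520 and AT4G37530, which are members of the family and neighbours, so its signal cannot be given to either gene. It read 785 in wild type, 1708 with DRB2 and 2906 with DRB3, 2.17-fold and 3.70-fold above wild type. With 1 array each there is no error on these values. It drew attention because both readings were more than 2-fold above wild type in a probe set that the gene comparisons leave out.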

How the results depend on the processing

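Median centring and quantile normalization left the counts of peroxidase genes past 2-fold within 1.5 times and the medians within 0.1. Averaging over probe sets could change no peroxidase value, since each of these genes has 1 probe set. The counts and medians moved with the floor. With the floor at percentile 20, 60 or replaced by a pseudocount of 16, the genes higher in DRB2 against wild type numbered 7, 1 and 7 (4 in the report), and the medians of that comparison were 0.26, 0 and 0.36. In DRB3 against wild type the higher genes numbered 13, 6 and 13 (10 in the report), with medians of 0.47, 0 and 0.65, and in DRB3 against DRB2 they numbered 4, 2 and 3 (4 in the report), with medians of 0.30, 0 and 0.31. The shares of all genes higher moved too, to 3.21%, 0.217% and 4.96% with DRB2 against wild type, to 2.76%, 0.734% and 3.80% with DRB3, and to 1.23%, 0.240% and 1.95% between the overexpressors. In DRB3 against DRB2 1 gene fell with the lower floor, AT2G34060, and 2 with the pseudocount, AT2G34060 and AT2G24800, and in DRB3 against wild type 1 fell with the pseudocount, AT2G24800. The shares of all genes that fell were 3.03%, 4.57% and 3.83% in the same order, so these falls are near or under the background.

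At the floor of percentile 60, calls were lost for AT5G64120, AT5G66390 and AT4G08770 with DRB2 (log2 0.64, 0.17 and 0.83) and for AT1G68850, AT4G33420, AT5G39580 and AT3G49960 with DRB3 (0.26, 0.88, 0.35 and 0), because their wild-type or lower values were raised to 302. In DRB3 against DRB2 the calls of AT1G68850 and AT3G49960 were lost there (0.26 and 0), and that of AT1G68850 also with the pseudocount (0.98). Calls were gained with the lower floor and the pseudocount. With DRB3 they were PRX52 (2.01 and 2.08), AT1G34510 (1.42 and 1.25), AT5G06730 (1.09, lower floor) and AT3G03670 (1.47, pseudocount). With DRB2 they were PRX52 (1.67 and 1.79), AT5G39580 (1.80 and 1.56), AT1G34510 (1.03, lower floor) and AT3G03670 (1.52, pseudocount). No paired analysis was possible because each genotype has 1 array. Leaving out an array leaves no comparison with its genotype.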

Other observations

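Other probe sets are also listed for several genes with members of the family among them. The probe set listed for AT2G38380 and AT2G38390 read 3114 in wild type, 4037 with DRB2 and 5335 with DRB3, 1.30-fold and 1.71-fold above wild type. The probe set listed for AT2G18140 and AT2G18150 read 448, 528 and 643, a log2 ratio of 0.52 with DRB3. The probe set listed for AT3G17070 and a gene outside the family list read 42.3 and 105, under the floor, and then 138. In each of these the DRB3 overexpressor array read highest, and none passed 2-fold on floored values. The wild-type array read lowest, except that wild type and DRB2 tied at the floor in the probe set of AT3G17070. Among all genes above the floor on some array, 35.3% read highest with DRB3 and 33.9% lowest in wild type.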
